A study of Mus musculus with 10 samples.

Results

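Entry into the cell cycle from G1 depends on the D-type cyclins Ccnd1, Ccnd2 and Ccnd3 with the kinases Cdk4 and Cdk6, and then on the E-type cyclins Ccne1 and Ccne2. These 7 genes, the cell cycle kinase Wee1, the phosphatase Cdc25a and the chromosome gene Smc4 are described here across Drosha knockout, Dicer1 knockout and empty vector (EV) OP9 cells. The 10 genes were taken by their symbols, and all 10 were found among the 32526 gene names that both expression tables shared. OP9 cells are an established stromal line from mouse bone marrow and can turn into adipocytes. All cells, controls included, received 1 µM of the PPARγ agonist rosiglitazone for 10 days from confluence, and RNA was sequenced from bead-captured mRNA. The groups were Drosha knockout with 3 libraries and EV with 3 libraries in batch 2, and Dicer1 knockout with 2 libraries and EV with 2 libraries in batch 1. The labels do not say how the knockouts were made, whether each was 1 clone, or whether replicates came from separate cultures, so the p-values cover only the spread between libraries and that spread may be technical. All 3 Drosha knockout libraries share the mark g1 in their descriptions, which the labels do not explain.

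Each D-type cyclin binds Cdk4 or Cdk6, and the complex phosphorylates the retinoblastoma protein, which then releases E2F transcription factors. E2F factors raise the E-type cyclins and the genes of DNA replication. MicroRNAs are cut from primary transcripts by Drosha in the nucleus and from hairpins by Dicer1 in the cytoplasm, and they lower the stability or translation of mRNAs that pair with their seed. Members of the miR-15/16 family are known for targeting the mRNAs of D-type cyclins, Ccne1, Cdk6, Wee1 and Cdc25a, and one of their loci lies inside Smc4. In adipogenesis, preadipocytes leave the cell cycle before they become mature adipocytes.

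The sequences of the family are shown because the seed is the part that pairs with the target mRNA. Mature sequences are from RefSeq (GRCm38.p6), with the seed, bases 2 to 8, in capitals. The seed AGCAGCA was shared by 10 of 1679 mature names in that table, and miR-503 has the related seed AGCAGCG.
miR-15b-5p: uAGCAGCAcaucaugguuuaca
miR-15a-5p: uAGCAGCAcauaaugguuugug
miR-16-5p: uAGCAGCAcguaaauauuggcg
miR-195a-5p: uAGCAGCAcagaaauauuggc
miR-322-5p: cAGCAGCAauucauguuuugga
miR-497a-5p: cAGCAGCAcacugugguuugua
miR-503-5p: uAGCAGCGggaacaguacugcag

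Smc4 encodes the SMC4 subunit of condensin, the complex that compacts chromosomes for mitosis. It lies on the plus strand at chr3:69004738-69034623 (GRCm38), and its transcript Smc4-201 has 24 exons. The hairpins of Mir15b, at chr3:69009772-69009835, and Mir16-2, at chr3:69009902-69009996, lie on the same strand in intron 5 of that transcript, so a primary transcript through this intron carries both.

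The 3′ UTRs of the 10 genes were searched for the 7-base match to this seed, TGCTGCT, and for the match extended by the A opposite base 1, TGCTGCTA, in the sense strand of the longest annotated 3′ UTR of each gene (GENCODE, GRCm38). At least 1 match was present in 7 of the 10 genes, and in 20.3% of 20981 annotated 3′ UTRs. Among genes expressed highly enough to be tested, the share was 24.8% in the Drosha comparison and 25.1% in the Dicer1 comparison. Several of the 10 genes were chosen as known targets of this family, so the choice itself favoured matches. Matches were present in Ccnd1, Ccnd2, Ccnd3, Ccne1, Cdk6, Wee1 and Cdc25a, and none was found in Smc4, Ccne2 or Cdk4. The sites are shown because they are where the family could pair with these mRNAs. Below is 1 site of 30 bases per gene, the 8-base match where there is one, in lower case with the match in capitals.
Ccnd1, chr7 144930383 to 144930412, minus strand: gcatgccaccaTGCTGCTggcccgggggga
Ccnd2, chr6 127128530 to 127128559, minus strand: gtttcacggtgTGCTGCTAttttagaaaca
Ccnd3, chr17 47599283 to 47599312, plus strand: gttgctttgctTGCTGCTtagcttctgtga
Ccne1, chr7 38098012 to 38098041, minus strand: tattttgtaagTGCTGCTAtgtctatcaat
Cdk6, chr5 3524534 to 3524563, plus strand: gttgcacagggTGCTGCTAtctcaaagaca
Wee1, chr7 110142657 to 110142686, plus strand: ccttgtgaattTGCTGCTAttttagtttcc
Cdc25a, chr9 109892859 to 109892888, plus strand: cagaccagtatTGCTGCTActcaaagtcaa

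The 8-base form was present in Ccnd2, Ccne1, Cdk6, Wee1 and Cdc25a, and in 4.05% of all annotated 3′ UTRs. For this form too, the choice of known targets favoured matches. Wee1 and Cdc25a each held a further 7-base match, and Cdk6 held 2 further ones that overlap each other. A second 7-base form, which has the A but lacks the match to base 8, was counted apart and enters no share here. Ccnd1 and Ccnd2 each held 2 of that form, and Ccnd3 and Ccne1 each held 1. It was absent from Smc4, Ccne2, Cdk4, Cdk6, Wee1 and Cdc25a. Length bears on these counts. A match was present in 9.02% of UTRs within 1.25-fold of the 531 bases of Ccne1 and in 20.1% of those near the 1174 bases of Wee1. It was present in 73.3% of those near the 10217 bases of Cdk6, and in 2.45% of those near the 97 bases of Smc4. A match is a description of the sequence, and binding was not measured.

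**Figure D1:**
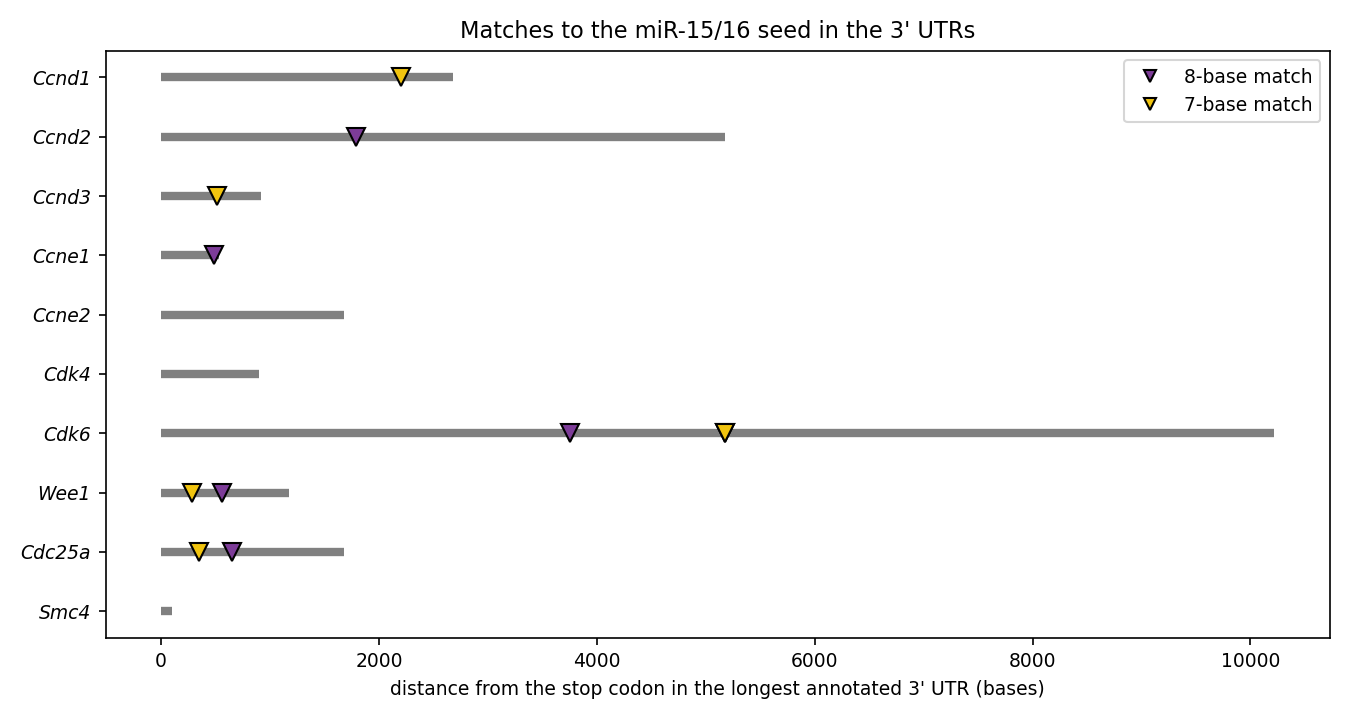
Positions of the seed matches in the longest annotated 3′ UTR of each of the 10 genes, in bases from the stop codon. Grey bars are UTR lengths, purple triangles 8-base matches and yellow triangles 7-base matches to the whole seed. Smc4, Ccne2 and Cdk4 carry none, and the 2 overlapping 7-base matches of Cdk6 appear as 1 triangle.

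The expression values are TPM, transcript abundances divided by transcript length and scaled to a fixed total, so levels can be set against each other within a table and sequencing depth is unknown. Between 11893 and 12917 genes reached 1 TPM per library. The 2 EV libraries of batch 1 stood further apart than any other pair of 1 group, with a median absolute log2 difference of 0.225, while this value was 0.122 for Dicer1 knockout and ranged over 0.0812 to 0.106 for pairs in batch 2. Drosha had 14.8, 13.7 and 15.6 TPM in Drosha knockout libraries, against 38.9, 39.6 and 38.6 TPM in EV. Dicer1 had 19.3 and 14.9 TPM in libraries labelled Dicer1 knockout, against 23.8 and 17.3 TPM in EV. These ranges overlap (log2 fold change -0.25 ± 0.21, adjusted p = 0.407), so the level of Dicer1 mRNA does not check that label. All 6 stromal markers reached 1 TPM in every library. Of the 6 macrophage markers, Lyz2 in batch 2 and Cd68 in batch 1 made up nearly all of a summed 12.4 to 23.3 TPM, Tyrobp was listed at 0 throughout and Ptprc did not exceed 0.142 TPM. No endothelial marker of 6 reached 1 TPM in every library of any group.

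The adipocyte markers moved with the groups in both batches. Adipoq, which encodes the adipocyte hormone adiponectin, had 106, 107 and 118 TPM in Drosha knockout libraries, against 231, 240 and 233 TPM in EV, and 0.148 and 0.164 TPM in Dicer1 knockout libraries, against 61.6 and 36.4 TPM in EV. Of 6 adipocyte markers, 4 fell and 1, Fabp4, rose in Drosha knockout, and 5 fell in Dicer1 knockout. Adipoq and Plin1 lay below 1 TPM in both Dicer1 knockout libraries. They passed the filter on low TPM there only through EV, so the filter itself favoured a fall. Their summed level was 1466 to 1498 TPM in Drosha knockout, against 1385 to 1401 TPM in EV, and 305 to 335 TPM in Dicer1 knockout, against 861 to 991 TPM in EV. The stromal markers moved too. Of 6, 4 fell and none rose in Dicer1 knockout (Pdgfrb, Col1a1, Col1a2 and Cxcl12), and all 6 fell after median-ratio scaling of each library. In Drosha knockout 2 fell (Col1a1 and Col1a2) and 1, Vcam1, rose. As deposited, 35.3% of all genes rose and 7.42% fell in Drosha knockout, and 21.5% rose and 9.6% fell in Dicer1 knockout. With the scaling fewer of all genes rose and more fell in both comparisons. The summed level of the stromal markers was 10490, 10380 and 10730 TPM in Drosha knockout libraries, against 10990, 10580 and 11310 TPM in EV, and 883 and 885 TPM in Dicer1 knockout libraries, against 1968 and 1598 TPM in EV. The part of either marker list in the results below was not tested. In bulk RNA, fewer cells of a type and less RNA per cell cannot be told apart.

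In Drosha knockout, 9 of the 10 genes rose, Cdk6 did not pass the test and none fell. A gene is said to have risen or fallen when its adjusted p was under 0.05 by limma on log2(TPM + 1), and fold changes are on that scale, which understates the change of low genes. Across all genes tested in this comparison, 42.8% were called, 35.3% as higher and 7.42% as lower. All 3 knockout libraries lay above all 3 EV libraries for the 9 genes that rose, and over all genes tested the groups did not overlap for 54.8%, with the knockout higher for 44.1% and lower for 10.7%. The median log2 fold change of the 10 genes was 0.84, against 0.13 over all 12739 genes tested. Scaling each library by its median ratio took the median of all genes to 0.00 and that of the 10 genes to 0.71, and then 8 of the 10 rose. The same scaling changed the split of all calls, which was 4502 higher and 945 lower as deposited, to 2297 higher and 2083 lower.

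In Dicer1 knockout, 3 of the 10 genes rose (Ccnd3, Cdk6 and Cdc25a), 2 fell (Smc4 and Ccne1) and 5 did not pass the test. Of all genes tested in this comparison, 31.1% were called, 21.5% as higher and 9.6% as lower. The groups did not overlap for 8 of the 10 genes, 4 higher and 4 lower, and for 70.1% of all genes tested, with the knockout higher for 45.9% and lower for 24.2%. The median log2 fold change of the 10 genes was 0.13, against 0.15 over 12239 genes, and it was -0.03 after median-ratio scaling, with 3 genes higher and 3 lower. With that scaling the calls over all genes were 1583 higher and 1580 lower, against 2627 higher and 1175 lower as deposited. These 5 calls rest on both Dicer1 knockout libraries. Without replicate 1 or without replicate 2 of them, limma called 0 genes at an adjusted p under 0.05, while 2925 and 3129 genes had an unadjusted p under 0.05. In those fits the 5 genes kept their directions with adjusted p-values between 0.11 and 0.24.

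**Figure D2:**
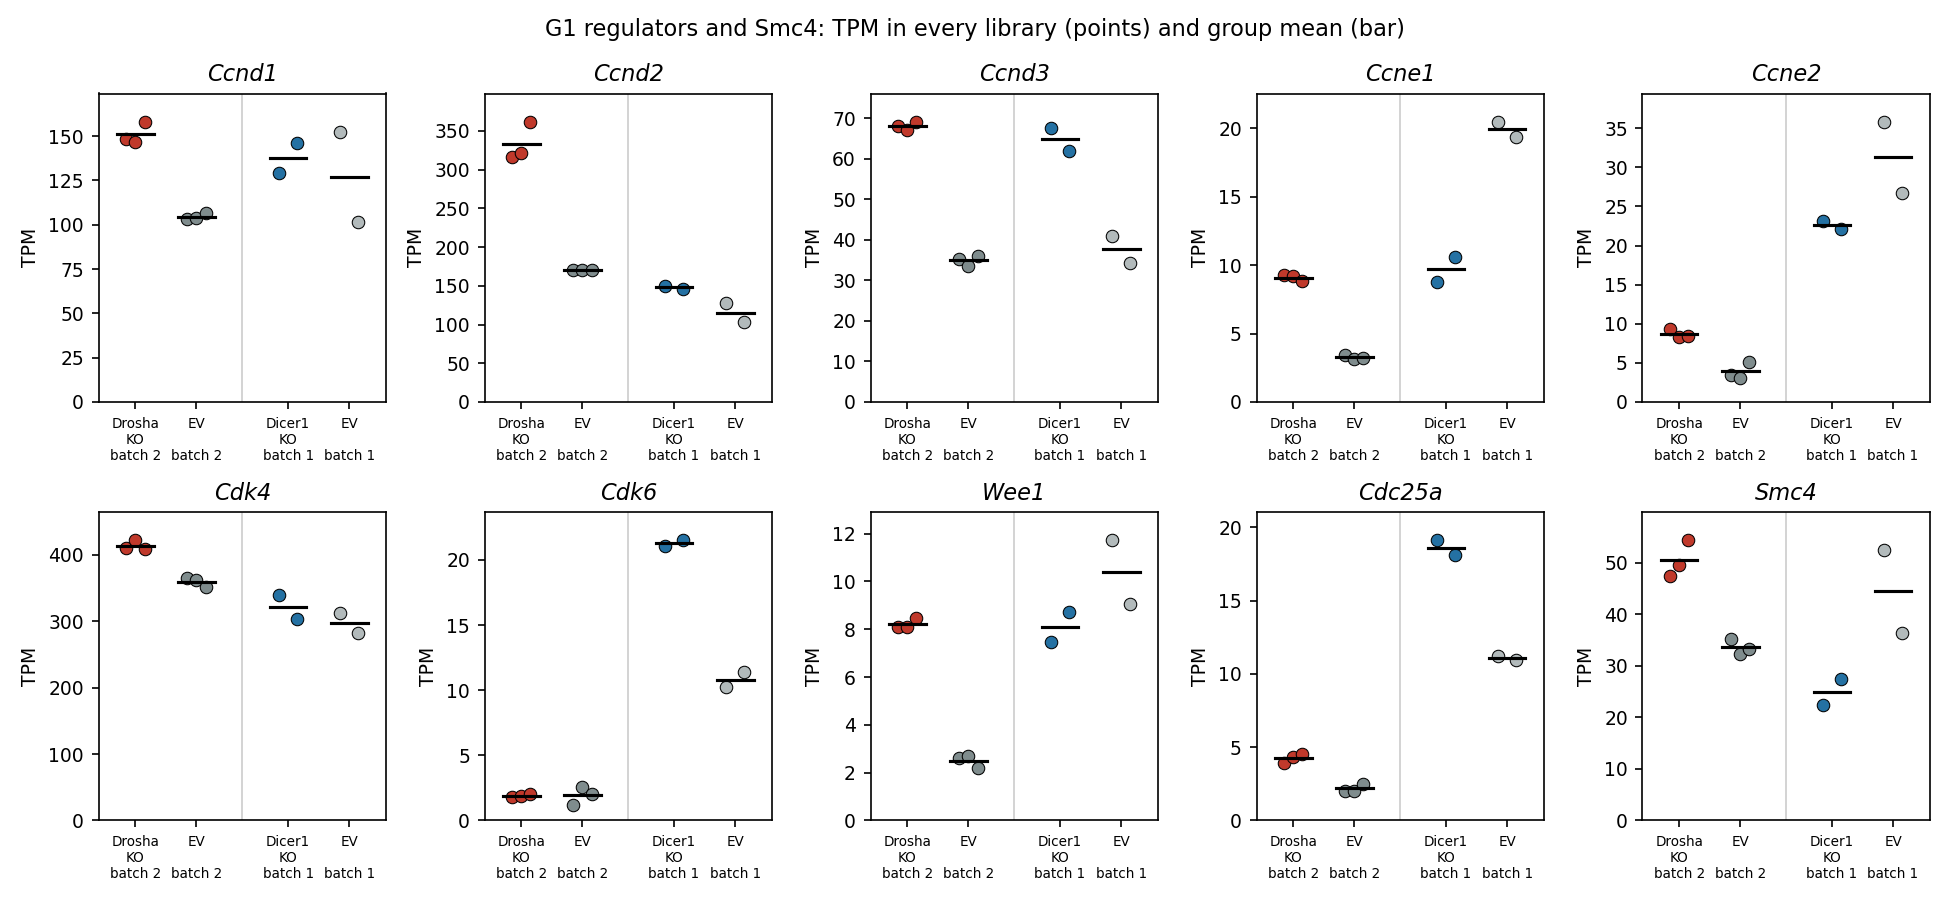
TPM of each of the 10 genes in every library (points) with the group mean (black bar), on axes that start at 0; each knockout stands left of the EV of its own batch. Drosha knockout points lie above all EV points for every gene except Cdk6, while Dicer1 knockout points lie above EV for Ccnd2, Ccnd3, Cdk6 and Cdc25a and below it for Smc4, Ccne1, Ccne2 and Wee1.

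Ccnd2 was the most abundant D-type cyclin in batch 2. It had 316, 322 and 362 TPM in Drosha knockout libraries, against 170.5, 170.4 and 170.3 TPM in EV. Every knockout library was higher than every EV library (log2 fold change 0.96 ± 0.05 SE, adjusted p = 2.46e-05). In batch 1, Ccnd2 had 149 and 146 TPM in Dicer1 knockout libraries, against 127 and 103 TPM in EV. These ranges were apart, yet the change did not pass the test (0.37 ± 0.12, adjusted p = 0.0708), and it did without EV replicate 1 (0.52, adjusted p = 0.0198).

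Ccnd3 was the least abundant D-type cyclin in all 4 groups, and it rose in both knockouts. It had 68.0, 67.1 and 69.2 TPM in Drosha knockout libraries, against 35.3, 33.5 and 36.0 TPM in EV (log2 fold change 0.94 ± 0.04, adjusted p = 1.18e-05). It had 67.7 and 62.1 TPM in Dicer1 knockout libraries, against 40.9 and 34.4 TPM in EV (0.77 ± 0.12, adjusted p = 0.0118). The knockout libraries were above their EV libraries in both batches without overlap. The difference between the 2 changes was 0.17 ± 0.11 (adjusted p = 0.254), and without EV replicate 2 of batch 1 it was 0.29 (adjusted p = 0.0213).

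Ccnd1 rose in Drosha knockout, with 148, 146 and 158 TPM, against 103, 104 and 106 TPM in EV (log2 fold change 0.53 ± 0.04, adjusted p = 7.1e-05). In batch 1 it had 129 and 146 TPM in Dicer1 knockout libraries, against 152 and 102 TPM in EV. The EV libraries lie on both sides of the knockout libraries, and the change did not pass the test (0.14 ± 0.20, adjusted p = 0.621). Its sign turned after median-ratio scaling (-0.01) and without EV replicate 2 (-0.15).

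TPM of different genes may be added within a library. The 3 D-type cyclins summed to 552 ± 32.1 TPM in Drosha knockout and 309.8 ± 2.60 TPM in EV (SD, n = 3 each), a ratio of 1.78. The exact two-sided permutation test gave p = 0.1, the smallest that 3 against 3 libraries allow. Ccnd2 made up 60.3% ± 1.06 of the sum in Drosha knockout and 55.0% ± 0.477 in EV, and Ccnd1 made up 27.4% ± 0.533 in Drosha knockout and 33.7% ± 0.298 in EV (SD, n = 3 each, exact permutation p = 0.1 for both). Neither share overlapped between the groups. In batch 1 the sum was 351 ± 6.13 TPM in Dicer1 knockout and 279.9 ± 57.6 TPM in EV (SD, n = 2 each, exact permutation p = 0.333, the smallest that 2 against 2 allow). There Ccnd3 took 18.5% ± 1.46 of the sum in Dicer1 knockout and 13.6% ± 1.15 in EV, and the share of Ccnd2 differed by less than the spread between libraries, at 42.2% ± 1.30 in Dicer1 knockout and 41.4% ± 2.37 in EV (SD, n = 2 each).

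**Figure D3:**
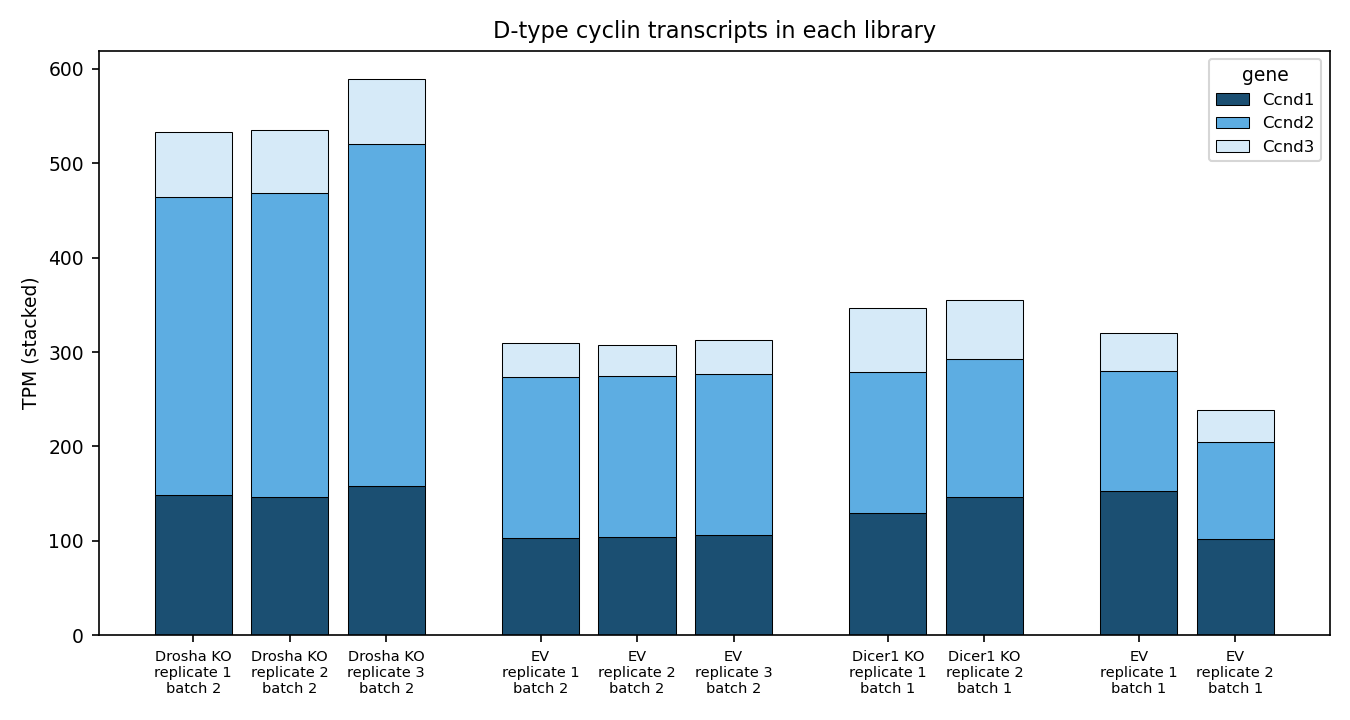
Stacked TPM of Ccnd1, Ccnd2 and Ccnd3 in each library, knockout libraries left of the EV libraries of their batch. The Drosha knockout sums lie between 532 and 589 TPM, against 308 to 313 TPM in EV; the Dicer1 knockout sums are 346 and 355 TPM, against 321 and 239 TPM in EV.

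The E-type cyclins activate Cdk2 at the start of S phase. Ccne1 moved in opposite directions in the 2 comparisons. It had 9.25, 9.19 and 8.83 TPM in Drosha knockout libraries, against 3.41, 3.14 and 3.21 TPM in EV (log2 fold change 1.25 ± 0.07, adjusted p = 3.33e-05). It had 8.79 and 10.6 TPM in Dicer1 knockout libraries, against 20.5 and 19.3 TPM in EV (-0.97 ± 0.16, adjusted p = 0.0118). The tables were normalized separately. Ccne1 averaged 9.09 TPM in Drosha knockout and 9.69 TPM in Dicer1 knockout, and the EV libraries averaged 3.25 TPM in batch 2 and 19.9 TPM in batch 1.

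Ccne2 had 9.32, 8.29 and 8.46 TPM in Drosha knockout libraries, against 3.51, 3.06 and 5.17 TPM in EV (log2 fold change 1.00 ± 0.16, adjusted p = 0.0019). In batch 1 it had 23.1 and 22.1 TPM in Dicer1 knockout libraries, against 35.9 and 26.7 TPM in EV. Those ranges were apart with the knockout lower, and the change did not pass the test (-0.44 ± 0.17, adjusted p = 0.103). It passed after median-ratio scaling (-0.59, adjusted p = 0.0387), after quantile normalization (-0.63, adjusted p = 0.0366) and without EV replicate 2 (-0.64, adjusted p = 0.0254).

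Of the kinase partners of the D-type cyclins, Cdk4 was the most abundant of the 10 genes in every group and Cdk6 was on average the least abundant in batch 2. Cdk4 had 410, 422 and 409 TPM in Drosha knockout libraries, against 364, 362 and 352 TPM in EV. The groups did not overlap (log2 fold change 0.20 ± 0.03, adjusted p = 0.00136), but the change lay near the median of all genes, and it did not pass after median-ratio scaling (0.06, adjusted p = 0.203) or quantile normalization (0.08, adjusted p = 0.0601). In batch 1 Cdk4 had 340 and 304 TPM in Dicer1 knockout libraries, against 312 and 282 TPM in EV, with overlapping ranges (0.12 ± 0.10, adjusted p = 0.419; -0.04 after median-ratio scaling).

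Cdk6 had 1.81, 1.87 and 2.02 TPM in Drosha knockout libraries, against 1.18, 2.60 and 2.04 TPM in EV. The EV libraries spanned the knockout libraries (log2 fold change 0.01 ± 0.20, adjusted p = 0.979), and the sign of the change turned with median-ratio scaling (-0.09). It had 21.1 and 21.5 TPM in Dicer1 knockout libraries, against 10.2 and 11.4 TPM in EV, a rise with no overlap (0.92 ± 0.14, adjusted p = 0.0107). Cdk6 made up 6.22% of the summed Cdk4 and Cdk6 TPM in Dicer1 knockout and 3.53% in EV, and 0.458% in Drosha knockout and 0.539% in EV.

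Wee1 inhibits cyclin-dependent kinases by phosphorylation, and Cdc25a removes that phosphate, so they act on the same kinases in opposite ways. Wee1 had 8.11, 8.09 and 8.48 TPM in Drosha knockout libraries, against 2.63, 2.69 and 2.20 TPM in EV. That was the largest log2 fold change of the 10 genes in this comparison (1.40 ± 0.09, adjusted p = 4.75e-05). It had 7.45 and 8.72 TPM in Dicer1 knockout libraries, against 11.7 and 9.06 TPM in EV, which did not pass the test (-0.32 ± 0.20, adjusted p = 0.265).

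Cdc25a rose in both knockouts. It had 3.95, 4.36 and 4.51 TPM in Drosha knockout libraries, against 2.04, 2.04 and 2.46 TPM in EV (log2 fold change 0.73 ± 0.11, adjusted p = 0.00153). It had 19.1 and 18.1 TPM in Dicer1 knockout libraries, against 11.2 and 10.98 TPM in EV (0.70 ± 0.14, adjusted p = 0.019). No library of a knockout overlapped its EV libraries, and the 2 changes differed by 0.03 ± 0.15 (adjusted p = 0.891). Over the alternatives in processing that difference ranged from -0.01 to 0.20. The scale of log2(TPM + 1) understates the change of low genes, and the mean EV level was 2.18 TPM in batch 2 and 11.1 TPM in batch 1.

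Smc4 moved in opposite directions in the 2 comparisons. It had 47.4, 49.6 and 54.4 TPM in Drosha knockout libraries, against 35.2, 32.4 and 33.2 TPM in EV (log2 fold change 0.57 ± 0.06, adjusted p = 3.53e-04). It had 22.5 and 27.4 TPM in Dicer1 knockout libraries, against 52.5 and 36.4 TPM in EV (-0.79 ± 0.20, adjusted p = 0.038). The groups did not overlap in either batch. The EV libraries of batch 1 differed widely, and without EV replicate 1 the fall was 0.53 on the log2 scale with an adjusted p of 0.077. It also did not pass with no filter on low TPM (adjusted p = 0.112) or without the mean trend in limma (adjusted p = 0.0719).

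**Figure D4:**
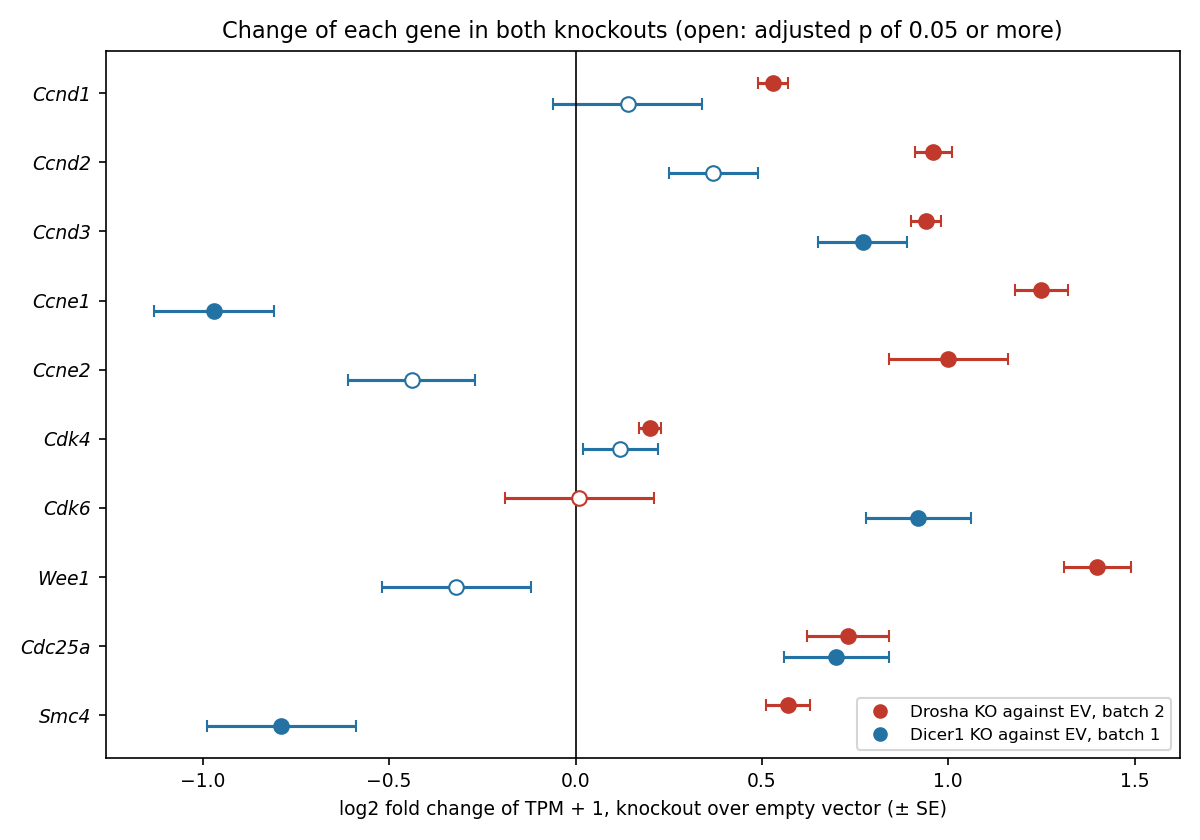
Log2 fold change of TPM + 1, knockout over EV, for each gene with its standard error; red is Drosha knockout (3 against 3 libraries) and blue Dicer1 knockout (2 against 2), and open points have an adjusted p of 0.05 or more. The 2 estimates lie on opposite sides of 0 for Ccne1, Ccne2, Wee1 and Smc4 and close together for Ccnd3, Cdk4 and Cdc25a.

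The difference between the changes, Drosha knockout minus Dicer1 knockout, was tested in 1 limma fit of the 10 libraries. It was positive and passed the test for 5 of the 10 genes, negative for 1, and did not pass for 4. Over 11146 genes, 35.5% were called, 17.4% as higher and 18.1% as lower. The differences were 2.22 ± 0.14 for Ccne1 (adjusted p = 7.05e-06), 1.72 ± 0.18 for Wee1 (adjusted p = 1.22e-04), 1.44 ± 0.25 for Ccne2 (adjusted p = 0.00174), 1.36 ± 0.20 for Smc4 (adjusted p = 6.55e-04) and 0.59 ± 0.12 for Ccnd2 (adjusted p = 0.00435). For Cdk6 it was -0.91 ± 0.26 (adjusted p = 0.022). Ccnd1 differed by 0.38 ± 0.19 (adjusted p = 0.142), which passed without EV replicate 2 of batch 1 (0.67, adjusted p = 4.28e-04). The call for Cdk6 did not hold without Dicer1 knockout replicate 1 (adjusted p = 0.0598) or replicate 2 (adjusted p = 0.0638), or with a pseudocount of 0.1 (adjusted p = 0.0779). Knockout and batch coincide, so a difference between the knockouts and a difference between the batches cannot be told apart.

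The order of levels was much alike at its top and differed at its bottom. Cdk4 led in every group. Ccnd2 was second with ranges apart from Ccnd1 in Drosha knockout, its EV and Dicer1 knockout, while in the EV of batch 1 Ccnd1 and Ccnd2 overlapped. Ccne1, Ccne2 and Wee1, at 9.09, 8.69 and 8.23 TPM on average, had overlapping neighbours in Drosha knockout. Wee1, Cdc25a and Cdk6 overlapped in the EV of batch 2, at 2.51, 2.18 and 1.94 TPM, and Cdc25a, Cdk6 and Wee1 overlapped in the EV of batch 1, at 11.1, 10.8 and 10.4 TPM. The mean EV level of Ccne2 was 3.91 TPM in batch 2 and 31.3 TPM in batch 1. Since the tables were normalized separately, no test was made between batches.

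Of the transcripts that host the seed family, Smc4 and Dleu2 are described here with the hairpin entries, and mature microRNAs were not analysed here. Dleu2, the noncoding gene that carries Mir15a and Mir16-1, had 58.4, 75.9 and 65.2 TPM in Drosha knockout libraries, against 14.7, 14.9 and 14.5 TPM in EV (log2 fold change 2.10 ± 0.09, adjusted p = 1.17e-05). In batch 1 Dleu2 had 6.95 and 5.98 TPM in Dicer1 knockout libraries, against 13.3 and 8.71 TPM in EV, which did not pass the test (-0.66 ± 0.24, adjusted p = 0.09) except without EV replicate 2 (-0.94, adjusted p = 0.0339). The difference between the 2 changes was 2.76 ± 0.22 (adjusted p = 2.58e-05).

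Mir322 had 1040, 1207 and 1497 TPM in Drosha knockout libraries, against 18.3, 15.5 and 13.9 TPM in EV, a log2 fold change of 6.20 ± 0.14 (adjusted p = 9.19e-07). Mir503, its neighbour on the X chromosome, had 1142, 1258 and 1606 TPM in Drosha knockout libraries, against 34.4, 26.3 and 12.9 TPM in EV (5.80 ± 0.32, adjusted p = 2.68e-05). In the Dicer1 table Mir322 was listed at 0 in all 4 libraries, and Mir503 was listed at 0 except for 12.5 TPM in EV replicate 1. Hairpin genes are shorter than usual sequencing fragments, so the scale of their TPM is uncertain. The hairpin entries Mir15b, Mir15a and Mir16-1 reached at most 2.04, 4.87 and 1.23 TPM in any Drosha knockout library and were listed at 0 in EV. Mir16-2, Mir195a, Mir195b, Mir497 and Mir497b were listed at 0 in all 10 libraries.

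The genes beside Smc4 were looked at for the same locus. Trim59, the neighbouring gene of a ubiquitin ligase family, had 31.7, 31.6 and 30.8 TPM in Drosha knockout libraries, against 21.5, 23.1 and 23.3 TPM in EV (log2 fold change 0.45 ± 0.05, adjusted p = 3.47e-04). It had 22.3 and 21.7 TPM in Dicer1 knockout libraries, against 42.8 and 29.5 TPM in EV (-0.67 ± 0.19, adjusted p = 0.0495). Kpna4, an importin gene, rose by 0.30 ± 0.04 (adjusted p = 0.00141) in Drosha knockout, and its log2 fold change was 0.46 ± 0.12 (adjusted p = 0.0406) in Dicer1 knockout. Of the 3 neighbours tested, 2 rose in Drosha knockout, and 1 rose and 1 fell in Dicer1 knockout. Over all genes tested, 35.3% rose in Drosha knockout, and 21.5% rose and 9.6% fell in Dicer1 knockout. Without the mean trend in limma, and with no filter on low TPM, none of the 3 rose or fell in Dicer1 knockout. The call of Trim59 there was also lost with a pseudocount of 0.1 and without EV replicate 1, and that of Kpna4 after median-ratio scaling and quantile normalization.

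Most other condensin genes moved in the direction of Smc4 in both comparisons. Of 7 other condensin genes, 5 rose and none fell in Drosha knockout, with a median log2 fold change of 0.78. The test called 35.3% of all genes higher in Drosha knockout and 9.6% lower in Dicer1 knockout. In Dicer1 knockout 5 fell and none rose, with a median of -1.11, and 2 of the 7 fell without EV replicate 1 of batch 1, 3 without the mean trend in limma and none with no filter on low TPM. Ncaph, the subunit that closes the condensin ring, had 7.31, 6.44 and 7.14 TPM in Drosha knockout libraries, against 2.81, 3.36 and 2.90 TPM in EV (0.98 ± 0.09, adjusted p = 2.38e-04). It had 4.01 and 5.35 TPM in Dicer1 knockout libraries, against 18.1 and 10.6 TPM in EV (-1.40 ± 0.29, adjusted p = 0.0223). Ncapg and Ncapd2 rose by 0.90 and 0.79 in Drosha knockout and fell by 1.41 and 1.11 in Dicer1 knockout on the log2 scale, all with groups apart. Ncapg2 rose by 0.78 ± 0.20 in Drosha knockout, and Smc2, the dimer partner of SMC4, fell by 1.15 on the log2 scale in Dicer1 knockout.

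The genes whose pattern was most like that of Smc4 were ranked by Pearson correlation of log2(TPM + 1), each library minus its batch's EV mean, over the 10 libraries and 11146 genes. The 5 highest were Ncapd2 (r = 0.9996), Sorcs1 (0.9964), Kif11 (0.9964), Fdps (0.9942) and Lig1 (0.994). Kif11 encodes a mitotic kinesin and Lig1 a DNA ligase of replication, while Fdps makes farnesyl diphosphate and Sorcs1 is a sorting receptor gene. Among the other 9 genes described here, the values were 0.95 for Ccne1, 0.88 for Ccne2 and 0.86 for Wee1, followed by 0.64 for Ccnd1 and 0.53 for Ccnd2. They were 0.33 for Cdk4, 0.18 for Ccnd3, 0.06 for Cdc25a and -0.77 for Cdk6. These values describe 4 groups of libraries that share their batch's EV mean and carry no test.

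Downstream of the G1 genes, the cyclins of S, G2 and M phase (Ccna2, Ccnb1, Ccnb2 and Ccnf) all rose in Drosha knockout, 4 of 4, and all fell in Dicer1 knockout, 4 of 4. Their median log2 fold changes were 1.28 in Drosha knockout and -2.29 in Dicer1 knockout. Among all genes tested, 35.3% rose in Drosha knockout and 9.6% fell in Dicer1 knockout. Their summed level was 42.9, 48.0 and 48.4 TPM in Drosha knockout libraries, against 16.9, 16.5 and 16.9 TPM in EV. It was 20.3 and 22.4 TPM in Dicer1 knockout libraries, against 161 and 97.1 TPM in EV, so the EV of batch 1 stood above every other group. Ccnb1, the main mitotic cyclin, had 13.8, 14.97 and 14.4 TPM in Drosha knockout libraries, against 6.01, 5.59 and 5.69 TPM in EV (1.19 ± 0.06, adjusted p = 2.44e-05). It had 3.65 and 4.52 TPM in Dicer1 knockout libraries, against 59.6 and 29.3 TPM in EV (-3.08 ± 0.34, adjusted p = 0.0061). Of the other 3, Ccna2, Ccnb2 and Ccnf rose by 1.38 ± 0.09, 1.37 ± 0.08 and 1.15 ± 0.11 in Drosha knockout. They fell by 1.79, 2.38 and 2.19 on the log2 scale in Dicer1 knockout. Of the 4 falls, 2 passed with no filter on low TPM.

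E2F target genes of S phase followed the same pattern. All 14 rose in Drosha knockout (median log2 fold change 0.57), and 11 did after median-ratio scaling. As deposited, 35.3% of all genes rose in Drosha knockout and 9.6% fell in Dicer1 knockout. With the scaling fewer of all genes rose in Drosha knockout. In Dicer1 knockout 10 of 14 fell and none rose (median -0.94), while 6 fell without the mean trend in limma and none with no filter on low TPM. Mcm5, a subunit of the replicative helicase, had 16.8, 16.4 and 18.4 TPM in Drosha knockout libraries, against 5.80, 7.22 and 5.82 TPM in EV (1.32 ± 0.09, adjusted p = 6.16e-05). It had 10.8 and 13.2 TPM in Dicer1 knockout libraries, against 41.1 and 25.2 TPM in EV (-1.36 ± 0.25, adjusted p = 0.0165). Rrm2, a subunit of ribonucleotide reductase, rose by 0.94 ± 0.06 in Drosha knockout and fell by 1.41 in Dicer1 knockout on the log2 scale. Tk1, a thymidine kinase gene, and Cdc6, which loads the helicase, rose by 1.23 ± 0.08 and 1.02 ± 0.14 in Drosha knockout. Cdc6 averaged 0.778 TPM in EV of batch 2, below 1 TPM in every library. It passed the filter on low TPM only through the Drosha knockout libraries, so the filter itself favoured a rise. Mcm6, another helicase subunit, fell by 1.27 on the log2 scale in Dicer1 knockout.

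**Figure D5:**
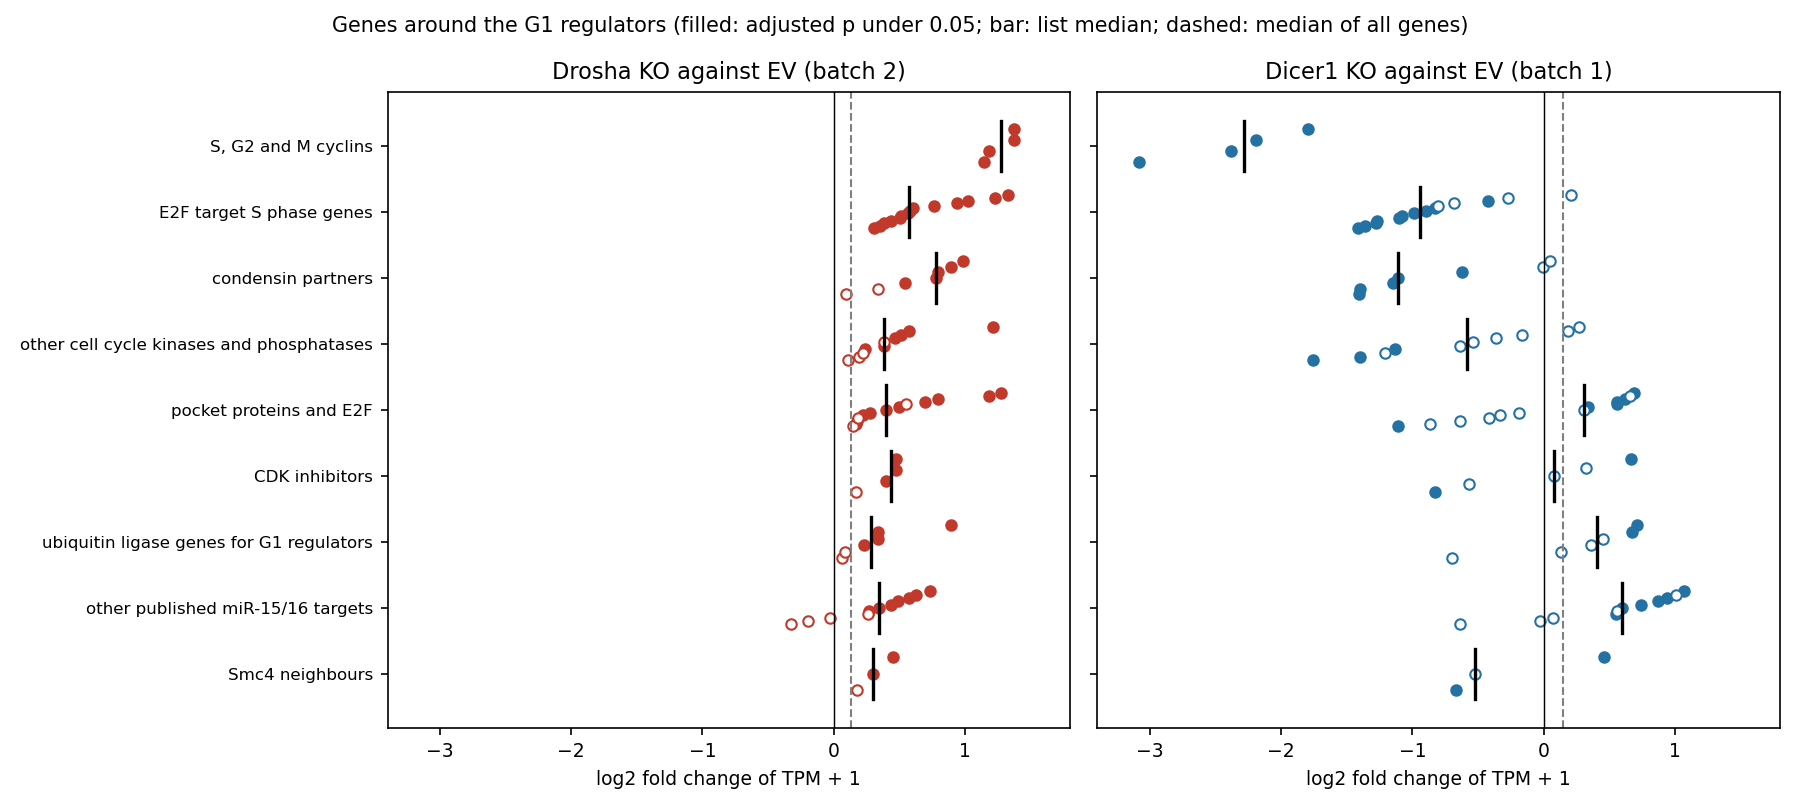
Log2 fold change of TPM + 1 of single genes (points, filled where the adjusted p is under 0.05) in lists around the G1 regulators, Drosha knockout on the left and Dicer1 knockout on the right; black bars are list medians and the dashed line is the median of all genes. The medians of the S, G2 and M cyclins are 1.28 in Drosha knockout and -2.29 in Dicer1 knockout, and those of the other published miR-15/16 targets are 0.35 and 0.60.

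Among other cell cycle kinases and phosphatases, 6 of 10 rose and none fell in Drosha knockout, and 3 of 10 fell and none rose in Dicer1 knockout. For all genes the shares were 35.3% higher in Drosha knockout and 9.6% lower in Dicer1 knockout. In Dicer1 knockout 1 of the 10 fell without the mean trend in limma, 2 without EV replicate 1, 6 without EV replicate 2 and none with no filter on low TPM. Cdk1, the mitotic kinase, had 88.5, 94.6 and 91.5 TPM in Drosha knockout libraries, against 39.3, 36.2 and 41.6 TPM in EV (log2 fold change 1.21 ± 0.06, adjusted p = 1.42e-05). It had 48.5 and 41.8 TPM in Dicer1 knockout libraries, against 174.9 and 83.1 TPM in EV (-1.40 ± 0.34, adjusted p = 0.0318). Cdk2, the partner of the E-type cyclins, rose by 0.39 ± 0.07 in Drosha knockout (adjusted p = 0.00448). Pkmyt1, a kinase related to Wee1, rose by 0.47 in Drosha knockout and fell by 1.13 in Dicer1 knockout on the log2 scale. Of the relatives of Cdc25a, Cdc25b rose by 0.52 ± 0.09 in Drosha knockout (adjusted p = 0.00405) and Cdc25c fell by 1.76 on the log2 scale in Dicer1 knockout (adjusted p = 0.0117).

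Of the inhibitors of cyclin-dependent kinases, 3 of 4 tested rose and none fell in Drosha knockout, and 1 of 5 rose and 1 fell in Dicer1 knockout. Of all genes tested, 35.3% were higher in Drosha knockout, and 21.5% were higher and 9.6% lower in Dicer1 knockout. Cdkn1b, which encodes p27, had 193, 189 and 191 TPM in Drosha knockout libraries, against 144, 145 and 144 TPM in EV (log2 fold change 0.40 ± 0.03, adjusted p = 5.63e-05). Cdkn1a, which encodes the p53 target p21, rose in both knockouts. It had 153, 168 and 169 TPM in Drosha knockout libraries, against 122, 115 and 115 TPM in EV (0.47 ± 0.05, adjusted p = 3.5e-04), and 592 and 531 TPM in Dicer1 knockout libraries, against 339 and 365 TPM in EV (0.67 ± 0.09, adjusted p = 0.00907). Cdkn2d, which encodes p19, rose by 0.48 ± 0.07 in Drosha knockout and fell by 0.83 on the log2 scale in Dicer1 knockout (adjusted p = 0.0495). The fall of Cdkn2d did not pass without the mean trend in limma, with no filter on low TPM or without EV replicate 1, and after median-ratio scaling 2 of the 5 inhibitors fell. More of all genes also fell in Dicer1 knockout with that scaling.

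Among the retinoblastoma family and E2F genes, 10 of 13 rose and none fell in Drosha knockout (median log2 fold change 0.40), and 6 rose after median-ratio scaling. The largest changes were in E2f7 (1.27 ± 0.13, adjusted p = 3.55e-04) and E2f6 (1.19 ± 0.06, adjusted p = 2.36e-05), which both encode repressor members. E2f5 rose by 0.80 ± 0.06 and E2f8 by 0.70 ± 0.15 (adjusted p = 0.00827). E2f7 and E2f8 averaged 0.900 and 0.769 TPM in EV of batch 2, below 1 TPM in every library. They passed the filter on low TPM only through the Drosha knockout libraries, so the filter itself favoured a rise. In Dicer1 knockout 5 of 13 rose and 1 fell, and after median-ratio scaling 1 rose and 2 fell. As deposited, 21.5% of all genes rose and 9.6% fell in Dicer1 knockout, and 35.3% rose in Drosha knockout. With the scaling fewer of all genes rose and more fell in both comparisons. In Dicer1 knockout as deposited E2f8, a relative of E2f7, fell by 1.11 on the log2 scale (adjusted p = 0.039). E2f3, an activator, rose by 0.69 ± 0.13 (adjusted p = 0.0178), and Rb1, the retinoblastoma gene, rose by 0.62 ± 0.17 (adjusted p = 0.0458), as did its relative Rbl2 by 0.56 ± 0.15 (adjusted p = 0.0405).

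Ubiquitin ligase genes that act on G1 proteins were called higher in 4 of 6 cases in Drosha knockout and in 2 of 6 in Dicer1 knockout, and none fell. As deposited, the shares over all genes were 35.3% higher in Drosha knockout and 21.5% higher in Dicer1 knockout. After median-ratio scaling 2 rose in Drosha knockout, and none rose and 1 fell in Dicer1 knockout. That scaling left fewer of all genes called higher and more called lower in both comparisons. Skp2, through which p27 is degraded, had 8.32, 8.18 and 8.10 TPM in Drosha knockout libraries, against 3.72, 4.40 and 3.76 TPM in EV (log2 fold change 0.89 ± 0.08, adjusted p = 2.05e-04). Fbxw7, through which cyclin E is degraded, rose by 0.34 ± 0.11 in Drosha knockout (adjusted p = 0.0372) and by 0.67 ± 0.17 in Dicer1 knockout (adjusted p = 0.0348). Fbxo31, a ligase gene for cyclin D1, rose by 0.23 ± 0.07 (adjusted p = 0.0429) in Drosha knockout and 0.71 ± 0.20 (adjusted p = 0.0476) in Dicer1 knockout, and Btrc, a ligase gene for Wee1 and Cdc25a, rose by 0.34 ± 0.04 in Drosha knockout.

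Other published targets of miR-15/16 were looked at beside the G1 genes. Of 11 tested, 7 rose and none fell in Drosha knockout (median log2 fold change 0.35), and after median-ratio scaling 5 rose and 2 fell. In Dicer1 knockout 6 of 11 rose and none fell (median 0.60), and 4 rose after that scaling. The share of all genes that rose as deposited was 35.3% in Drosha knockout and 21.5% in Dicer1 knockout. With the scaling fewer of all genes rose and more fell in both comparisons.

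Bcl2, the antiapoptotic gene best known as a target of this family, holds 1 seed match in its 3′ UTR. It had 2.23, 2.32 and 2.47 TPM in Drosha knockout libraries, against 1.12, 1.09 and 1.27 TPM in EV (log2 fold change 0.63 ± 0.12, adjusted p = 0.00537). Mcl1, of the same gene family, rose by 0.49 ± 0.04 in Drosha knockout (adjusted p = 6.98e-05), and its 3′ UTR holds no seed match. Ppm1d, a phosphatase gene of the p53 response with 1 match, rose by 0.43 ± 0.08 in Drosha knockout (adjusted p = 0.0054). Vegfa, the gene of an angiogenic factor with 1 match, had 614 and 609 TPM in Dicer1 knockout libraries, against 309 and 327 TPM in EV (0.94 ± 0.08, adjusted p = 0.00418). In batch 2 Vegfa had 26.1, 24.1 and 25.9 TPM in Drosha knockout libraries, against 30.9, 30.8 and 26.2 TPM in EV, with the knockout lower without overlap, which did not pass the test (-0.20 ± 0.07, adjusted p = 0.0639). The difference between its changes, Drosha knockout minus Dicer1 knockout, was -1.14 ± 0.11 (adjusted p = 6.08e-05). Over the 11 genes that difference passed as higher for 2 and as lower for 4. Over all genes tested it passed as higher for 17.4% and as lower for 18.1%. Acvr2a, an activin receptor gene with 2 matches, had 18.1 and 17.6 TPM in Dicer1 knockout libraries, against 7.83 and 8.15 TPM in EV (1.07 ± 0.14, adjusted p = 0.0087). Acvr2a was also higher without overlap in Drosha knockout, as were Bcl2 and Mcl1 in Dicer1 knockout, while Ppm1d overlapped its EV there. Over all genes the knockout was higher without overlap for 44.1% in the Drosha comparison and 45.9% in the Dicer1 comparison. Smad7, a gene with 1 match that encodes an inhibitor of TGF-β signalling, rose by 0.74 ± 0.11 in Dicer1 knockout (adjusted p = 0.0105). Its Drosha knockout libraries overlapped EV.

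Promoter sequences of 5 of the 10 genes were in the RefSeq table (GRCm38.p6, 250 bases before to 50 after the start). The E2F motifs TTTCCCGC, TTTCGCGC, TTTGCCGC and TTTGGCGC were searched on both strands, and 2.27% of 32851 promoters held at least 1. Cdc25a held TTTGGCGC 67 bases before its start, and Ccnd3, Ccne1, Cdk4 and Cdk6 held none of these letters in that window.

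Some of these genes share sequence with others, which affects how reads are assigned. Ccnd1 shared 22.3% of its 31-base words with LTO1, Cdk4 19.5%, mostly with Tspan31, and Ccne2 15.6% with Ints8, each a gene that overlaps it on the other strand. For the other 7 genes the share was between 0 and 7.95%. Whether the libraries were stranded is not given in the sources used here, and without strand reads of such pairs cannot be told apart. LTO1 had 20.1, 21.0 and 18.0 TPM in Drosha knockout libraries, against 25.5, 20.1 and 23.8 TPM in EV, and Tspan31 had 191.5, 188 and 194 TPM in Drosha knockout libraries, against 165, 154 and 164 TPM in EV. Ints8 had 31.3, 29.4 and 32.1 TPM in Drosha knockout libraries, against 25.4, 25.6 and 25.7 TPM in EV. In Dicer1 knockout libraries LTO1 had 29.97 and 33.3 TPM, against 22.5 and 18.5 TPM in EV, and Tspan31 had 130.9 and 127.6 TPM, against 132.2 and 126.9 TPM in EV. Ints8 had 32.6 and 32.5 TPM in Dicer1 knockout libraries, against 25.1 and 21.9 TPM in EV. Bysl, which overlaps Ccnd3 on the other strand, had 9.01, 9.78 and 10.6 TPM in Drosha knockout libraries, against 7.15, 7.61 and 6.89 TPM in EV. Ints8, Tspan31 and Bysl were thus higher in Drosha knockout, where Ccne2, Cdk4 and Ccnd3 rose. No test is given for these overlapping genes. In Dicer1 knockout Ints8 and LTO1 were higher and Ccne2 and Ccnd1 did not pass the test, while Ccnd3 rose and Bysl overlapped its EV.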

How the data were processed

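RNA from 10 OP9 libraries was sequenced, and the authors deposited 1 table of TPM per knockout, which per the submitters' processing notes came from kallisto 0.48.0. Which build its index came from is not given in the sources used here. Several extraction kits and sequencers stand in the labels with no assignment to libraries. TPM keep no sequencing depth, so no counting interval is given. Each table had 55357 entries. For Drosha, 20024 of 22369 entries without a symbol were named by Ensembl ID, and for Dicer1, 22339 without a symbol, holding 4.25% to 6.22% of TPM, were left out. The authors' own means and ratio, in 3 columns, were not used.

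Each knockout was compared with the EV of its own batch by limma 3.58.1 (R 4.3.3) on log2(TPM + 1), two-sided, with a mean trend and Benjamini-Hochberg adjustment over all genes with at least 1 TPM in at least 3 of 6 (Drosha) or 2 of 4 (Dicer1) libraries. All 10 genes passed this filter in both tables. The difference between knockouts was a contrast in 1 fit of all 10 libraries, which gives each gene 1 spread for all groups although the EV libraries of batch 1 differed more. Sums and shares were tested by exact permutation. The method was tested on simulated data.

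The genes, the lists and the tests were chosen with earlier results of these data known. All 10 genes were named with all values, with every tested seed family locus. From each other list the rule allowed up to 4 called genes with the largest changes whose groups did not overlap, and these are named, except for some that are not reported here; overlapping genes that share sequence were named for that reason. Same-numbered libraries did not deviate together (correlations of -0.0213, 0.0203 and -0.00679 in batch 2, and -0.0921 in batch 1), so the numbers were not taken as pairs. Alternatives were pseudocounts of 0.1 and 0.5, no filter, a minimum of 5 TPM, median-ratio scaling, quantile normalization, no mean trend, the replicate block, and leaving out each library. 3′ UTRs were the longest in GENCODE for GRCm38, which is not necessarily the annotation the authors used.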

Additional observations from a re-analysis of the deposited data

Results flagged for a closer look

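The change in Drosha knockout differed from that in Dicer1 knockout, by the test of the difference itself, for 6 of the 10 genes and for Dleu2. The same test called 35.5% of 11146 genes, 17.4% as higher and 18.1% as lower. The call for Cdk6 did not hold under every alternative, among them a pseudocount of 0.1. The differences, Drosha minus Dicer1 on the log2 scale, were 2.22 for Ccne1, 1.72 for Wee1, 1.44 for Ccne2, 1.36 for Smc4, 0.59 for Ccnd2 and -0.91 for Cdk6, and 2.76 for Dleu2. For Ccne1 and Smc4 the change passed the test in each knockout with opposite signs. Knockout and batch coincide, so their parts cannot be told apart, and the EV levels themselves lay apart: the mean level of Cdk6 was 1.94 TPM in the EV of batch 2 and 10.8 TPM in that of batch 1, and that of Cdc25a was 2.18 TPM and 11.1 TPM.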

How the results depend on the processing

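Of 436 values of the 10 genes under the alternatives, 402 kept their direction and side of the threshold, 18 no longer passed, 6 newly passed and 10 changed sign; the cause was not tested. The difference between knockouts kept its call under all 18 alternatives for Smc4, Ccnd2, Ccne1, Ccne2 and Wee1. In Drosha knockout the calls of 8 genes held under every alternative run, and that of Cdk4 did not hold under median-ratio scaling and quantile normalization. The count of genes called for Dicer1 was 3802, and 1847 with no filter on low TPM, where more genes were tested; leaving out 1 library gave 0 to 3988, with 2925 and 3129 genes at an unadjusted p under 0.05 in the limma fits that called 0. For Drosha that range was 4542 to 4935 beside 5447, and for the difference 3130 to 4931 beside 3960. The replicate block gave 5188, 3045 and 3433 calls, changed the call of none of the 10 genes, and was not taken as pairing. Quantile normalization split the calls into 2140 higher and 2194 lower for Drosha and 1611 higher and 1469 lower for Dicer1.

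The values that changed sign were these. Cdk6 in Drosha knockout was -0.088 with median-ratio scaling, -0.105 with quantile normalization, and -0.193 to 0.169 over the fits without 1 library, below 0 without EV replicate 1 or Drosha knockout replicate 3. Ccnd1 in Dicer1 knockout was -0.013 and -0.029 with those scalings and -0.148 to 0.43 without 1 library, below 0 without EV replicate 2, and Cdk4 was -0.04 with median-ratio scaling. The difference for Cdc25a was -0.007 to 0.094 without 1 library, below 0 without Dicer1 knockout replicate 2 or Drosha knockout replicate 3. The share of Ccnd2 in the D-type cyclins, Dicer1 knockout minus EV, was -0.837 to 2.51 percentage points without 1 library, below 0 without EV replicate 1 or Dicer1 knockout replicate 1. None of these passed a test as deposited. TPM keep no depth, so low genes such as Cdk6 in batch 2 have an unknown counting error.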
